A study of Mus musculus with 5 samples.

Results

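The genes of the vascular endothelial growth factor (VEGF) family were compared between undifferentiated Mkl2-/- and wild-type mouse embryonic stem cells. The family was taken as 9 genes chosen by name: the ligand genes Vegfa, Vegfb, Vegfc and Pgf, the receptor genes Flt1, Kdr and Flt4, and the neuropilin genes Nrp1 and Nrp2. All 9 were measured, each by 1 array feature annotated with that symbol alone, and they were read within a fit over 19938 genes. The 2 groups were 3 Mkl2-/- cultures and 2 wild-type cultures of strain C57BL/6, described as independent cultures. All 5 grew with serum and leukaemia inhibitory factor on gelatin and mouse embryonic fibroblasts, and the fibroblasts were removed by letting them attach for 1 h before RNA was taken. Mkl2, now named Mrtfb, encodes a myocardin-related transcription factor that works with serum response factor, and the title of the series ties it to the developing vasculature. The labels do not say which part of Mkl2 is missing or how many cell lines or clones the cultures came from, so p-values measure only the spread between these cultures.

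VEGF ligands are secreted growth factors that bind receptor tyrosine kinases on the cell surface and are best known for driving the growth of blood and lymphatic vessels. Vegfa acts through Kdr, the main signalling receptor of blood endothelium, and also binds Flt1, which takes up ligand strongly but signals weakly and is also made in a soluble form. Vegfb and Pgf bind Flt1, while Vegfc acts through Flt4, the receptor of lymphatic endothelium. The neuropilins are co-receptors for VEGF ligands and, together with plexins, receptors for secreted semaphorins. In embryonic stem cells Kdr is known as a marker of the mesoderm that the cells form on differentiation, before which it is low.

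Values are log2 expression as deposited, and every difference is Mkl2-/- minus wild type on that scale. The targeted gene, read by 3 features, lay between 8.71 and 9.32 on the Mkl2-/- arrays and between 9.62 and 9.92 on the wild-type arrays, without overlap (-0.53 ± 0.09 for the feature used in the gene fit, limma adjusted p = 0.0480). In a fit over all features, its other features differed by -0.98 ± 0.11 and -0.83 ± 0.07 (limma adjusted p = 0.0309 and 0.0205). The feature used in the gene fit did not pass there (limma adjusted p = 0.0670). Since the deleted part is unknown, it cannot be said which features lie in it. Its relatives Mrtfa (0.01 ± 0.01), Myocd (0.10 ± 0.06, below background) and their partner Srf (-0.16 ± 0.04) did not pass. The stem cell gene Pou5f1 read 12.54, 12.52 and 12.52 in Mkl2-/- cells and 12.52 and 12.48 in wild-type cells, and the groups met at 12.52. Correlations between arrays over all genes were 0.998 to 0.999 within groups and 0.992 to 0.994 between groups. A background level of 7.30 was set at the 95th percentile of 1027 olfactory receptor genes, which are mostly silent outside the nose. Of all genes, 9.27% passed a limma adjusted p of 0.05, with 2.99% higher and 6.28% lower in Mkl2-/- cells. Higher genes were 32.3% of these calls, against 45.9% after quantile normalization of the deposited values. Without wild-type replicate 2, a fit that leaves 1 wild-type array and assumes it varies like the others, no gene of the 19938 passed (4411 had an unadjusted p under 0.05, smallest limma adjusted p 0.0583). Every call named below was therefore lost in that fit.

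Within the family, Flt1, Nrp2 and Vegfa were lower and Vegfb was higher in Mkl2-/- cells, and the other 5 genes did not pass the test. Flt1 fell 1.85-fold, Nrp2 1.74-fold and Vegfa 1.32-fold, and Vegfb rose 1.23-fold. The count was 4 of 9 genes, beside 9.27% of all genes tested and 12.9% of those above background. The arrays of both groups did not overlap for 7 of the 9 genes (5 lower, 2 higher), beside 33.6% of all genes. The family's median difference was -0.19, and that of all genes was 0.02. Of the 9, 7 had a mean above the background level, and Kdr and Nrp1 lay below it on all arrays. Because each array reads a whole culture, fewer cells expressing a gene and less RNA per cell cannot be told apart.

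**Figure D1:**
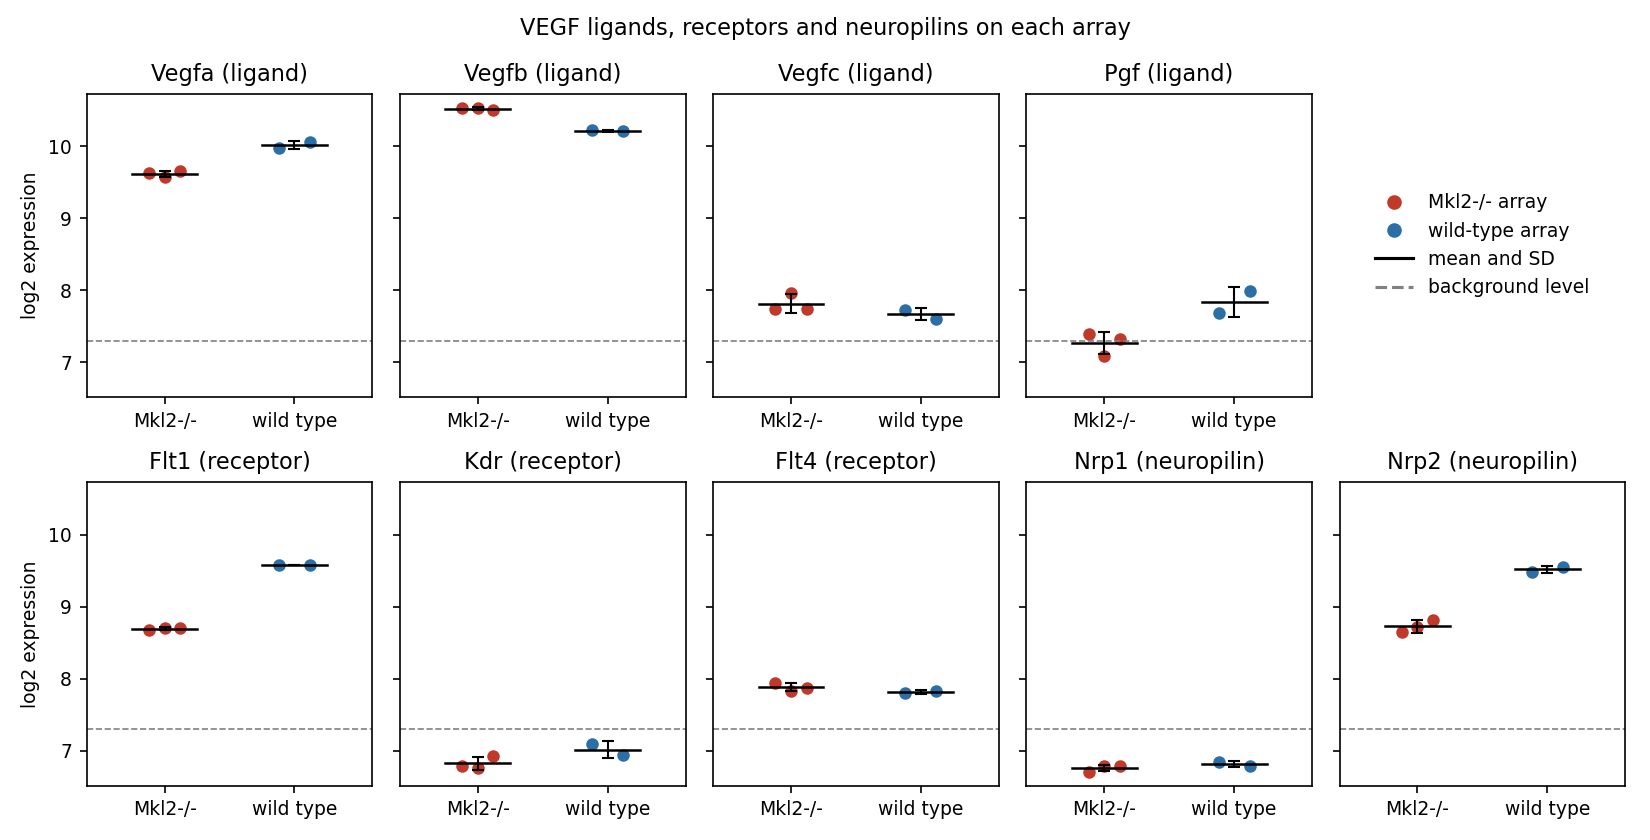
Log2 expression of the 9 VEGF family genes, with 1 panel per gene, 1 point per array, and the mean with its SD as black bars (n = 3 Mkl2-/- arrays on the left, 2 wild-type arrays on the right). The dashed line is the background level of 7.30. Flt1, Nrp2 and Vegfa sit lower and Vegfb higher in Mkl2-/- cells, while Kdr and Nrp1 lie under the line in both groups.

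The promoters of the 4 genes that passed are shown because Mkl2 acts through serum response factor, whose known binding sequence is the CArG box. The sequences are the 250 bases before the RefSeq start site in build GRCm38.p6, written 5′ to 3′ on the strand of the gene, with capitals marking ACGTG or GCGTG on either strand, the core of the hypoxia response element.
Flt1 (chr5:147726012-147726261, minus strand): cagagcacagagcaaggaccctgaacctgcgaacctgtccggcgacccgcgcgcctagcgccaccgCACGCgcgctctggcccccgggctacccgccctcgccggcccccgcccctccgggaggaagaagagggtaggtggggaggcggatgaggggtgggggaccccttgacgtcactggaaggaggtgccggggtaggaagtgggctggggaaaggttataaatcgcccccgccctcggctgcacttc
Nrp2 (chr1:62703067-62703316, plus strand): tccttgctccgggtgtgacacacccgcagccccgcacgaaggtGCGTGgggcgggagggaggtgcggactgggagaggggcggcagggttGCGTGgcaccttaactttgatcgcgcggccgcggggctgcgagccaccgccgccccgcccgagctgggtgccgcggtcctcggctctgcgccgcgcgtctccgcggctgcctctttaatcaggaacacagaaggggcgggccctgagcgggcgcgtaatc
Vegfa (chr17:46032378-46032627, minus strand): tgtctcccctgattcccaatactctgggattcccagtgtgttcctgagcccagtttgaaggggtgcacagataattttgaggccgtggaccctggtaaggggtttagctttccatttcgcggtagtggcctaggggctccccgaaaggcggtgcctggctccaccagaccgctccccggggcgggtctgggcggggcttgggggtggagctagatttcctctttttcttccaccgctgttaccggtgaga
Vegfb (chr19:6987652-6987901, minus strand): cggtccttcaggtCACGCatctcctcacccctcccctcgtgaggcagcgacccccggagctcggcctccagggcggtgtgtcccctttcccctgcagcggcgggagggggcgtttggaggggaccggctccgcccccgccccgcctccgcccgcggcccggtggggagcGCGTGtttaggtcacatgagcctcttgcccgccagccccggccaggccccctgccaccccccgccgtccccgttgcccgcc

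No CArG box was found on either strand in these 4 windows, nor in any of the 11 windows that RefSeq starts give for the 9 genes. Over 32851 such windows of all genes, 1.47% held one, so a window without it is the usual case. GCGTG on either strand occurred in the Flt1 window 1 time and in the Nrp2 and Vegfb windows 2 times each, but not in the Vegfa window shown, the first of 2 for that gene. Among all windows 28.2% held GCGTG and 16.6% held ACGTG, and a CACGTG would count on both strands. The GC box core GGGCGG, on either strand, occurred 3 times for Flt1, 5 times for Nrp2, 2 times for Vegfa and 4 times for Vegfb, and 32.7% of all windows held it. The ETS core GGAA, on either strand, was present in all 4 windows, as in 93.4% of all windows. The windows of the 3 genes that were lower and of the 1 that was higher thus held the same kinds of motif, apart from GCGTG in the first Vegfa window. The second Vegfa window, which is not shown, held GCGTG 1 time and ACGTG 1 time. It lies at chr17:46025164-46025413 on the minus strand, downstream of the first start site. Whether it acts as a promoter was not tested.

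The ligand genes moved in opposite directions. Vegfa, the central growth factor of blood vessels, read 9.63, 9.57 and 9.66 on the Mkl2-/- arrays, against 9.98 and 10.06 on the wild-type arrays. All 3 Mkl2-/- cultures were below both wild-type cultures, and the gap was larger than the spread within either group. Vegfa fell by 0.40 ± 0.04 (SE, n = 3 and 2; limma adjusted p = 0.0186). Vegfb, a ligand of Flt1 that is known for roles in heart and fat tissue more than in vessel growth, read 10.54, 10.53 and 10.50 in Mkl2-/- cells, against 10.23 and 10.21 in wild-type cells. Here all Mkl2-/- cultures were higher, and the cultures of each group lay close together. Its difference was 0.30 ± 0.02 (limma adjusted p = 0.00820). The array does not place ligands on a common scale, so these values do not say which ligand transcript was more abundant.

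Pgf, the placental growth factor that binds Flt1, read 7.39, 7.09 and 7.33 in Mkl2-/- cells and 7.69 and 7.99 in wild-type cells. The groups did not overlap, but the replicates were far apart and 1 Mkl2-/- array was below background. Its difference of -0.57 ± 0.14 did not pass (95% interval -0.97 to -0.17, limma adjusted p = 0.110). It passed as lower after quantile normalization (-0.59, limma adjusted p = 0.0211), after cyclic loess (-0.61, limma adjusted p = 0.0257), and when genes with no spread within either group were left out (limma adjusted p = 0.0422). Vegfc, the lymphatic ligand, read 7.74, 7.97 and 7.74 in Mkl2-/- cells and 7.73 and 7.61 in wild-type cells. Wild-type replicate 1 was only 0.01 below 2 of the Mkl2-/- arrays, and the difference of 0.15 ± 0.10 did not pass (95% interval -0.12 to 0.42, limma adjusted p = 0.403). Vegfd, a relative of Vegfc that also binds Flt4 and is outside the 9 genes, was lower: it read 7.77, 7.67 and 7.70 in Mkl2-/- cells and 8.01 and 8.11 in wild-type cells (-0.35 ± 0.05, limma adjusted p = 0.0324).

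Among the receptor genes only Flt1 passed the test. It read 8.68, 8.71 and 8.71 in Mkl2-/- cells, against 9.59 on both wild-type arrays. The arrays within each group were nearly identical and the groups lay far apart. The difference was -0.89 ± 0.015 (limma adjusted p = 0.00414), the smallest adjusted p in the family. That SE rests almost wholly on how close these few arrays were. Identical readings were common in the deposited values: 776 genes had no spread within either group, and 766 genes had 1 value on all arrays. The prior of limma added only 0.88 degrees of freedom to the 3 of the residuals. Kdr read 6.79, 6.77 and 6.93 in Mkl2-/- cells and 7.10 and 6.94 in wild-type cells. All of these are below background, so no fold is given, and wild-type replicate 2 was only 0.01 above the highest Mkl2-/- array. The Kdr difference of -0.19 ± 0.08 did not pass (limma adjusted p = 0.279), although it did after quantile normalization (-0.23, limma adjusted p = 0.0366) and cyclic loess (-0.23, limma adjusted p = 0.0415). Flt4 read 7.95, 7.84 and 7.87 in Mkl2-/- cells and 7.80 and 7.84 in wild-type cells, with overlapping groups (0.07 ± 0.04, 95% interval -0.05 to 0.18, limma adjusted p = 0.393). Whether the Flt1 feature reads the full-length transcript, the soluble one or both was not examined.

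Of the neuropilins, Nrp2 was lower and Nrp1 did not pass. Nrp2, a co-receptor for Vegfc and for the semaphorin Sema3f, read 8.65, 8.72 and 8.82 in Mkl2-/- cells, against 9.49 and 9.56 in wild-type cells. Every Mkl2-/- culture was well below both wild-type cultures, and the difference was -0.80 ± 0.06 (limma adjusted p = 0.0118). Nrp1, a co-receptor for Vegfa and for Sema3a, read 6.71, 6.79 and 6.79 in Mkl2-/- cells and 6.85 and 6.79 in wild-type cells. These values overlap and are all below background (-0.06 ± 0.04, 95% interval -0.16 to 0.05, limma adjusted p = 0.403). The wild-type cells thus had readings above background for 1 neuropilin gene of 2 and for Flt1 and Flt4 among the receptors. Flt4 was dim, with a wild-type mean of 7.82, beside 7.84 for Olfr1393, an olfactory receptor gene near it on the chromosome.

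The 4 calls differed in how often they passed when any 1 array was left out. With 1 array left out at a time, Flt1 passed in 4 of 5 fits (limma adjusted p 0.0276 to 0.0583), Vegfb in 3 of 5 (0.0357 to 0.0664), Nrp2 in 1 of 5 (0.0403 to 0.0835) and Vegfa in 0 of 5 (0.0610 to 0.0974). These fits have fewer arrays as well, and all 4 differences kept their sign and moved little, from -0.88 to -0.90 for Flt1 and from -0.36 to -0.44 for Vegfa. Over all settings tried the sign of each of the 9 differences stayed the same.

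**Figure D2:**
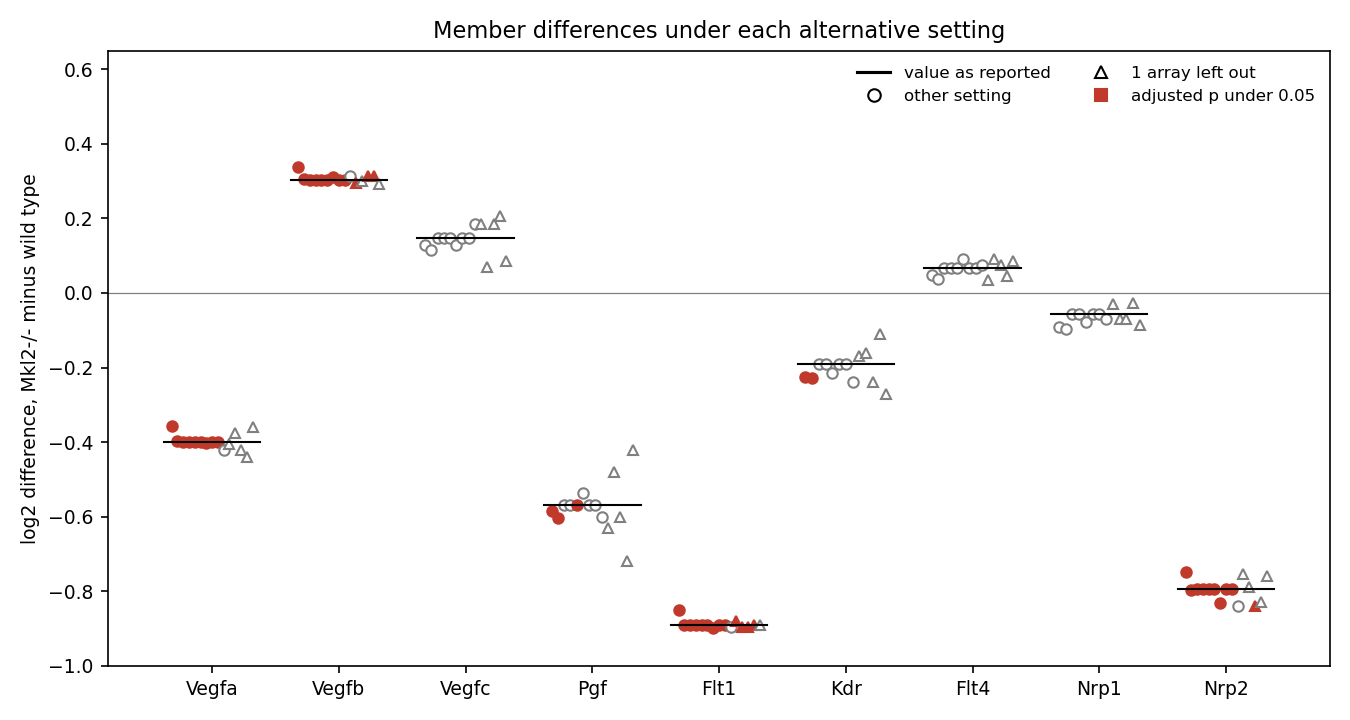
Log2 difference (Mkl2-/- minus wild type) of each family member under every alternative. Black lines are the reported values, circles are other settings, triangles are fits without 1 array, and red marks have a limma adjusted p under 0.05. No member crosses 0, and the Vegfa triangles are all open.

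Genes near each member on its chromosome were read to see whether a member moved alone or with the genes around it. For Vegfa on chromosome 17, the 10 nearest expressed genes in RefSeq order (5 on each side) had a median difference of 0.01, with none past the test and a range of -0.13 to 0.15. For Flt1 on chromosome 5 the median of the 10 was -0.00, with a range of -0.37 to 0.15. Of these 1 passed, Cdx2 (-0.37 ± 0.03), a trophoblast and hindgut transcription factor. The closest kinase relative of Flt1 nearby, Flt3, differed by 0.08 ± 0.04. Vegfb on chromosome 19 had neighbours that leaned the same way: 9 of 10 had a positive difference, the median was 0.07, and Ppp1r14b passed as higher (0.21 ± 0.03). Vegfa, Flt1 and Vegfb each lay outside the range of their 10 neighbours.

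Nrp2 stood among genes that were mostly lower. The 10 neighbours had a median of -0.24 and ran from -0.50 to 0.07, with Abi2 (-0.30 ± 0.04), Ndufs1 (-0.35 ± 0.03) and Zdbf2 (-0.50 ± 0.04) past the test as lower. With 10 neighbours on each side the median was -0.13 and 6 of 20 were lower. On the whole of chromosome 1, 31.3% of 758 expressed genes passed and the median difference was -0.17, whereas chromosomes 5, 8, 11, 12, 17 and 19 had medians of 0.00 to 0.03. The Nrp2 difference of -0.80 lay outside its neighbours' range, and the part of the chromosome in it was not tested. On one side of Kdr lie Kit and then Pdgfra, receptor kinases of the same broader class, which moved in opposite directions: Kit differed by -0.59 ± 0.04 and Pdgfra by 0.75 ± 0.07, while the other 8 of its 10 neighbours did not pass.

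**Figure D3:**
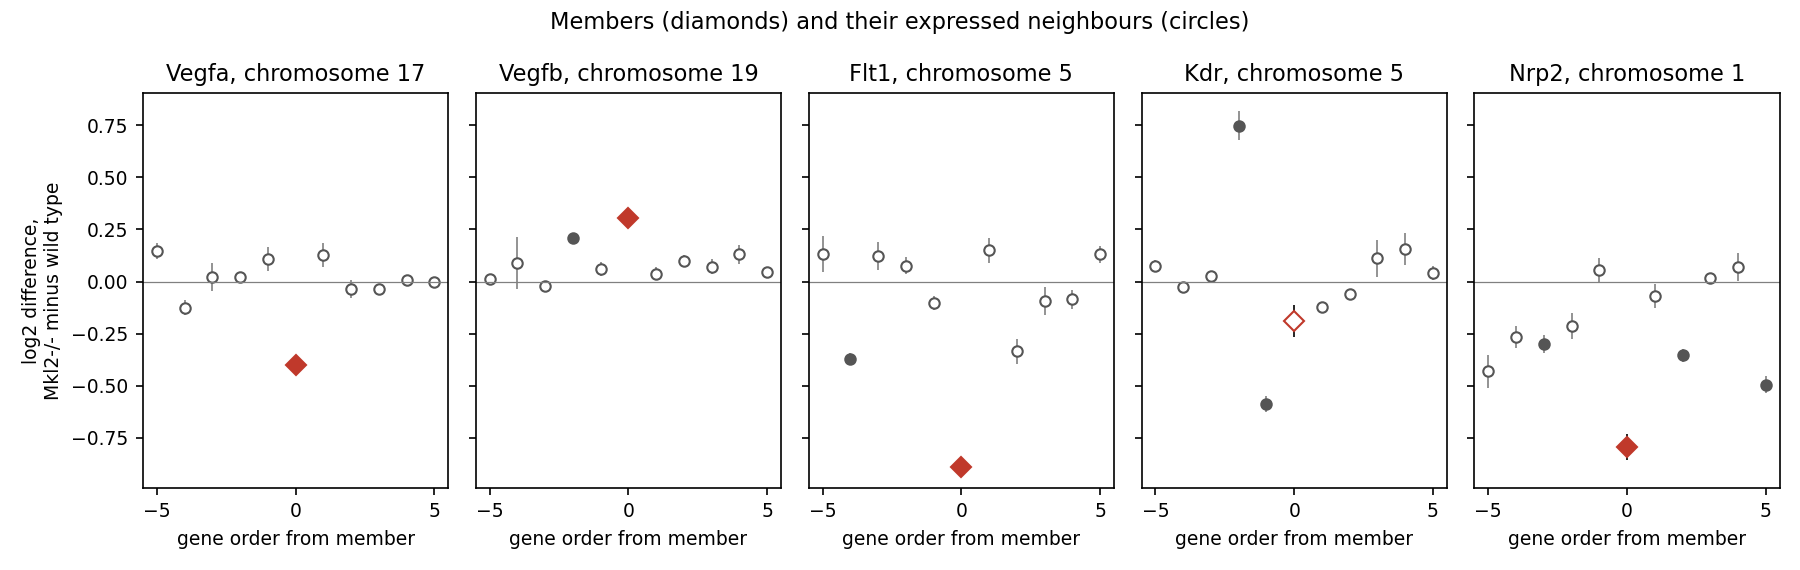
Log2 difference with its SE for 5 family members (diamonds) and the 5 expressed genes on each side (circles), in gene order and not to distance; filled marks passed a limma adjusted p of 0.05. Vegfa and Flt1 stand apart from neighbours whose medians are near 0. Of the 10 Nrp2 neighbours 7 are below 0, and Kdr lies beside Kit (lower) and Pdgfra (higher).

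The semaphorin and plexin genes that work with the neuropilins were lower where they changed. Of 14 genes 5 were lower and none was higher (35.7%, beside 9.27% of all genes and 12.9% of those above background), with a list median of -0.03. Sema3e, a semaphorin that guides vessels by binding the plexin D1 receptor directly, read 10.07, 10.14 and 10.12 in Mkl2-/- cells, against 10.80 and 10.77 in wild-type cells (-0.68 ± 0.03, limma adjusted p = 0.0062). That receptor's gene, Plxnd1, read 7.90, 7.79 and 7.84 in Mkl2-/- cells, against 8.19 and 8.31 in wild-type cells (-0.41 ± 0.05, limma adjusted p = 0.0303). Both genes of this ligand and receptor combination were thus lower without overlap. Sema3f, the main semaphorin ligand of Nrp2, read 8.98, 8.94 and 8.94 in Mkl2-/- cells, against 9.23 and 9.26 in wild-type cells (-0.29 ± 0.02, limma adjusted p = 0.0108). The plexin genes Plxna1 (-0.42 ± 0.04, limma adjusted p = 0.0186) and Plxna2 (-0.14 ± 0.02, limma adjusted p = 0.0487, on chromosome 1) were also lower. Sema3a, the classical ligand of Nrp1, was below background in both groups, as was Sema3d, and Plxna3 (0.12 ± 0.03) did not pass.

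Related receptor kinases and their ligands changed in 6 of 17 cases, 5 lower and 1 higher (35.3%, beside 9.27% of all genes and 12.9% of those above background; list median -0.03). Kit, the stem cell factor receptor, read 8.55, 8.46 and 8.45 in Mkl2-/- cells and 9.07 and 9.08 in wild-type cells (limma adjusted p = 0.00911). Pdgfra, a platelet-derived growth factor receptor found in mesenchyme and primitive endoderm, read 8.10, 8.30 and 8.24 in Mkl2-/- cells and 7.48 and 7.45 in wild-type cells (limma adjusted p = 0.0154). Of its ligand genes in the list, Pdgfa (-0.42 ± 0.05, limma adjusted p = 0.0220) and Pdgfc (-0.61 ± 0.08, limma adjusted p = 0.0268) were lower, and Pdgfb (-0.28 ± 0.06, limma adjusted p = 0.0700) did not pass. The sister receptor Pdgfrb (-0.28 ± 0.04) and the angiopoietin receptor Tek (-0.20 ± 0.01) were lower too. Angpt1 and Angpt2, the angiopoietin ligand genes, were below background in both groups.

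**Figure D4:**
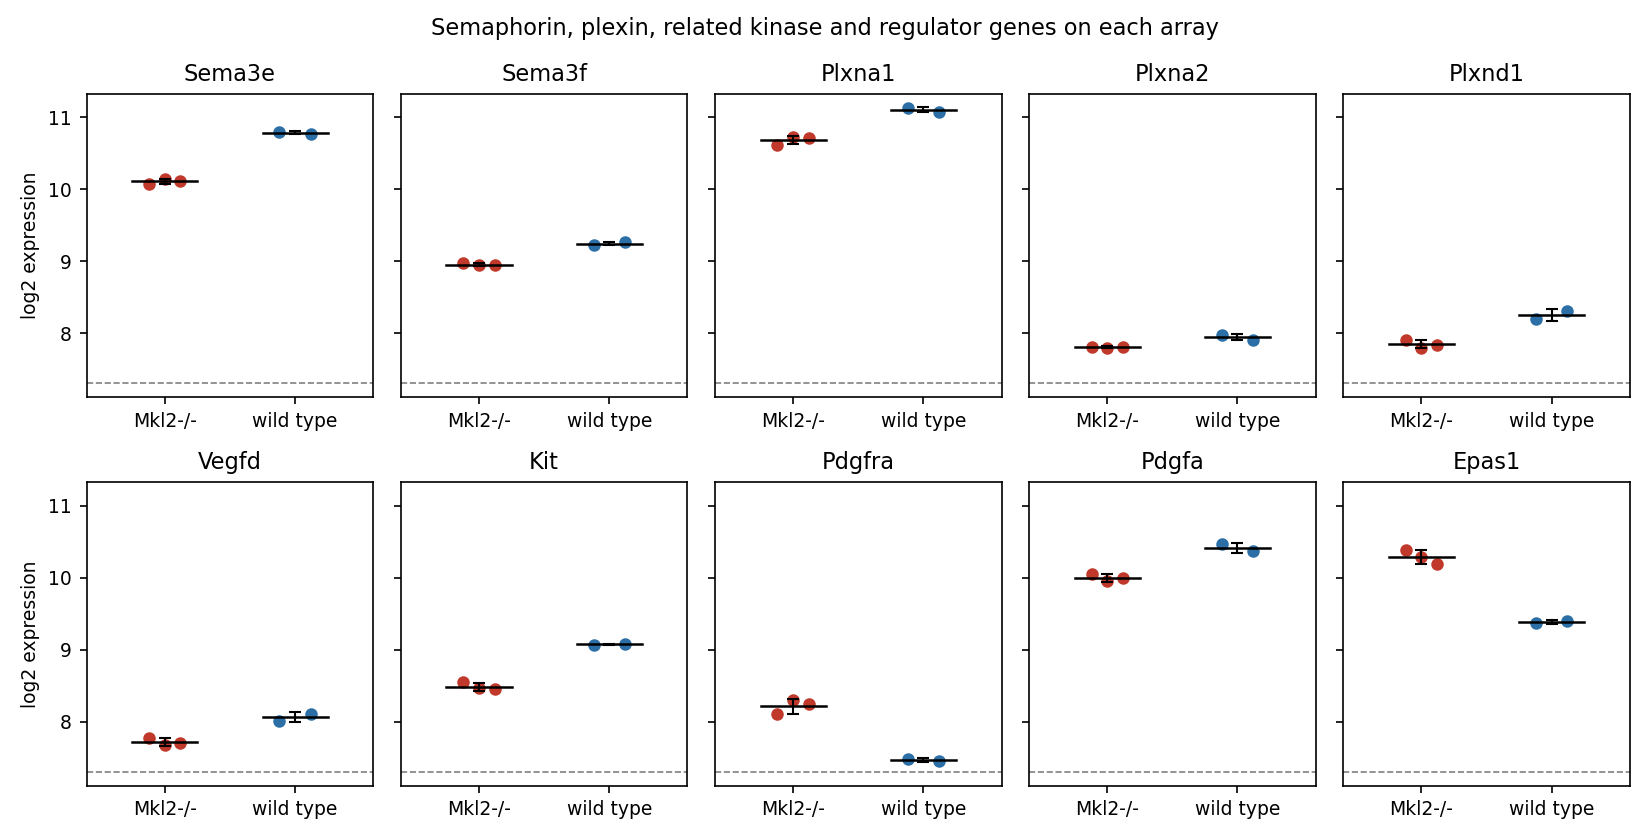
Log2 expression per array for 10 genes of the pathway lists, with Mkl2-/- (red) left of wild type (blue) and the mean with its SD in black (n = 3 and 2); the dashed line is the background level of 7.30. Pdgfra and Epas1 are higher and the other 8 genes lower in Mkl2-/- cells, without overlap between groups.

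Of 38 measured genes of VEGF receptor signalling, a list that holds the remaining ligand Vegfd and surface partners as well as proteins inside the cell, 2 were higher and 3 lower (list median -0.01). That share of 13.2% was near the 12.9% of all genes above background, beside 9.27% of all genes. Gab1, a docking protein downstream of many receptor kinases, read 11.74, 11.70 and 11.72 in Mkl2-/- cells, against 10.83 and 10.89 in wild-type cells, a rise of 0.86 ± 0.03 (limma adjusted p = 0.00541). Mapkapk2, a kinase that p38 activates, was lower (-0.92 ± 0.07, limma adjusted p = 0.0118) and lies on chromosome 1. The heat shock protein gene Hspb1, whose product Mapkapk2 phosphorylates, was higher (0.27 ± 0.03, limma adjusted p = 0.0191). Crk, an adaptor gene, was lower (-0.14 ± 0.02, limma adjusted p = 0.0337), and Vegfd, given above, was the third that fell. Plcg1, the phospholipase that Kdr activates, differed by 0.01 ± 0.02, and Akt1 by 0.15 ± 0.03 without passing (limma adjusted p = 0.0525).

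Genes that sense oxygen or regulate VEGF genes passed in 2 of 25 cases (8.0%), a share near that of all genes. Epas1, a hypoxia-inducible factor subunit that is prominent in endothelium, read 10.39, 10.29 and 10.19 in Mkl2-/- cells, against 9.37 and 9.40 in wild-type cells (0.91 ± 0.07, limma adjusted p = 0.0112). Hif1a, the related subunit best known for inducing Vegfa, differed by -0.07 ± 0.04, and Vhl, which marks these subunits for degradation, by -0.05 ± 0.03; neither passed. Prox1, the master regulator of lymphatic identity, read 6.79, 6.62 and 6.75 in Mkl2-/- cells, below background, against 7.47 and 7.52 in wild-type cells (limma adjusted p = 0.0123), and also lies on chromosome 1. Over the pathway lists together, 14 of 94 measured genes were lower and 4 higher, a share of 19.1%. Of the 94, 79 had a mean above background, where 12.9% of all genes passed.

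**Figure D5:**
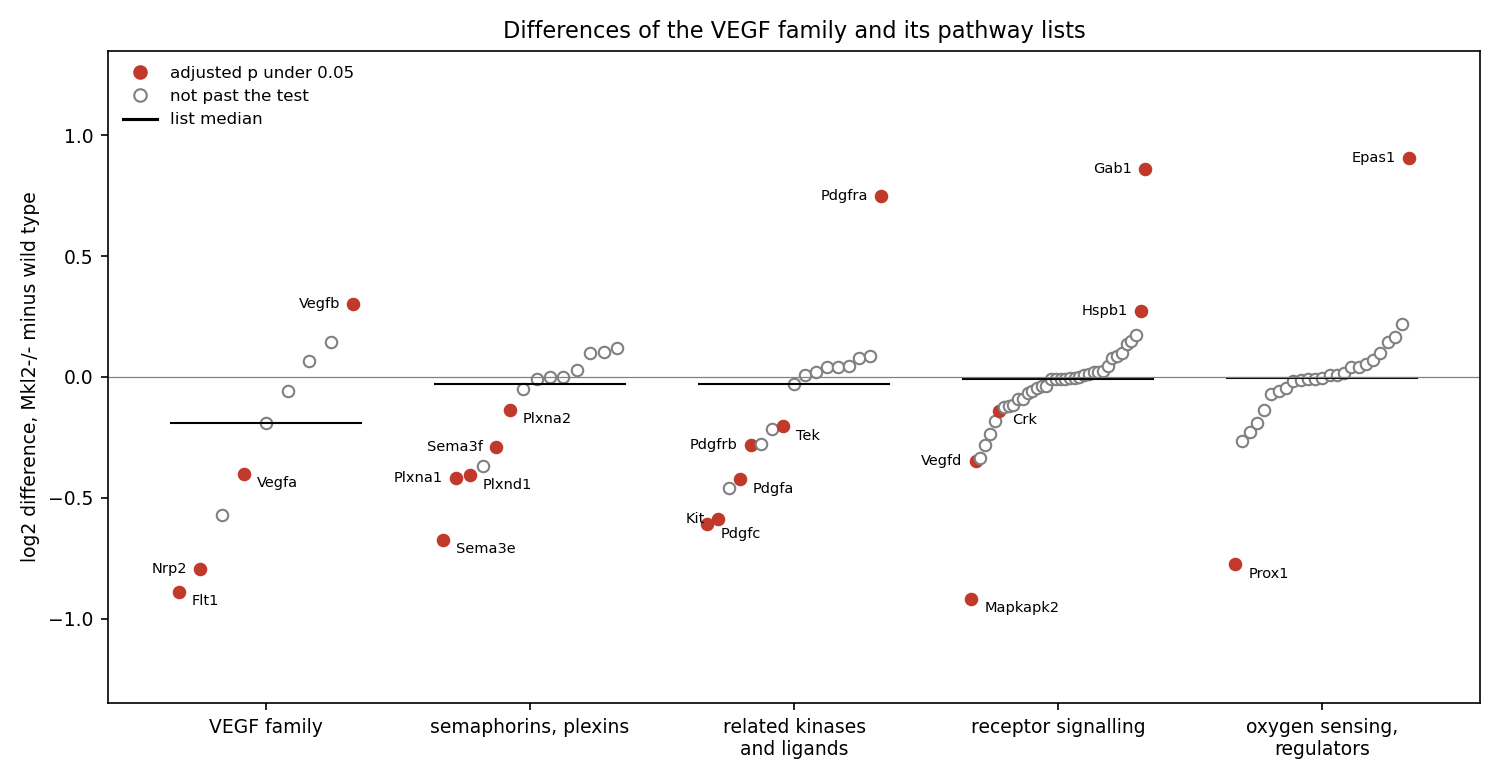
Log2 difference (Mkl2-/- minus wild type) of every measured gene in the VEGF family and in 4 lists of pathway genes; red points passed a limma adjusted p of 0.05 and are named, open points did not, and black lines are list medians. The changed semaphorin and plexin genes are all lower, and the signalling and oxygen lists gather around 0 with few genes far from it.

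Endothelial markers passed the test in 3 of 22 cases (13.6%, list median 0.08), a share near the 12.9% of all genes above background. Of the 3, 1 was higher (Cd34, 0.64 ± 0.02, on chromosome 1) and 2 were lower (Ecscr, -0.43 ± 0.03, and Tek). Their summed level on a linear scale was 5365 to 5472 on Mkl2-/- arrays and 5235 to 5381 on wild-type arrays, which overlap. Emcn, Esam and Lyve1 were below background on all arrays, while Cdh5, the endothelial cadherin, read 7.62 to 7.83 in Mkl2-/- cells and 7.58 to 7.65 in wild-type cells, just above background. Pecam1, which stem cells also express, did not pass (-0.43 ± 0.09, limma adjusted p = 0.0726).

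Markers of other cell types were read in the same way, as counts beside the 9.27% of all genes and the 12.9% of genes above background. Their summed linear levels are weighted towards the brightest features, so the genes that carry each sum are named. Of 23 fibroblast markers, which carried-over feeder cells would also express, 3 were lower (Igfbp4, Mmp2 and Pdgfrb) and Twist1 was higher (17.4%, list median -0.06). Their sum was 13769.8 to 14121 in Mkl2-/- cells and 16129.6 to 16887 in wild-type cells, and the bright gene Vim, which did not pass (-0.32 ± 0.07, limma adjusted p = 0.0758), made up most of that gap. Lum, Postn, Fap and Dpt were below background on all arrays. Of 12 trophoblast markers, from a lineage that makes much Flt1 and Pgf in the placenta, 4 were lower (Cdx2, Krt8, Krt18 and Esx1) and none was higher (33.3%, list median -0.09). Their sum was 10679 to 11653 in Mkl2-/- cells and 14910.2 to 15388 in wild-type cells. The keratin genes Krt8 (-0.54 ± 0.05) and Krt18 (-0.65 ± 0.10) made up almost all of that gap. Hand1 read higher without passing (0.47 ± 0.09, limma adjusted p = 0.0654), and Eomes differed by -0.01 ± 0.01. Elf5, Tpbpa and Plac1 were below background on all arrays, and Prl3d1, Prl2c2, Prl3b1 and Gcm1 were not measured. Of 17 primitive and parietal endoderm markers, which include Pdgfra, 6 were higher and 1 was lower (41.2%, list median 0.25). Their sum was 14548 to 16842 in Mkl2-/- cells and 10430.0 to 10580.0 in wild-type cells, with Srgn (4.93 ± 0.14) the main contributor. Like the other lists, this list was chosen with earlier results of these data known, so neither its share nor its sum is independent of those results. Besides Srgn and Pdgfra, the higher genes were Cubn (2.87 ± 0.15), Lama1 (1.45 ± 0.08), Gata6 (0.94 ± 0.10) and Gata4 (0.93 ± 0.09). The lower one was Sparc (-0.24 ± 0.04), and Afp, Ttr and Thbd were below background on all arrays. The rest of the list did not pass: Sox17 (0.33 ± 0.08), Sox7 (0.38 ± 0.13), Col4a1 (0.25 ± 0.10), Amn (0.24 ± 0.15), Hnf4a (0.05 ± 0.03), Dab2 (-0.06 ± 0.04) and Foxa2. Foxa2 read 8.27 on every array. Of 16 pluripotency genes 4 were higher and 3 lower (43.8%, list median -0.01), and none was below background. The higher ones were Dppa4 (0.74 ± 0.06), Fgf4 (0.67 ± 0.06), Dppa5a (0.49 ± 0.06) and Utf1 (0.39 ± 0.05), and the lower ones were Nanog (-1.14 ± 0.07), Klf4 (-0.69 ± 0.03) and Tfcp2l1 (-0.67 ± 0.09). The part of these markers in the VEGF family differences was not tested.

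For each member that passed, the 3 most similar genes were found by distance between log2 values centred on the mean of the 5 arrays, among 13563 other genes above background. Closest to Flt1 were Hes1, a Notch target (distance 0.066), Prtg, an early neural surface protein (0.079), and Adamts1, a matrix protease (0.079). Closest to Nrp2 were Clu, the chaperone clusterin (0.054), Kctd12b (0.071) and the protease gene Prss23 (0.074). Vegfa was most like Ccn4, a matricellular protein gene (0.026), Nxt2 (0.035) and Rhbg, an ammonium transporter (0.036). Vegfb was most like Grk6, a kinase that acts on G protein-coupled receptors (0.033), Dcun1d3 (0.033) and Nubp2 (0.036). With 5 arrays in 2 groups, a small distance says little beyond a group difference of similar size.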

How the data were processed

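Total RNA of 5 cultures was amplified, turned into single-stranded cDNA, labelled with biotin and hybridised to Affymetrix whole-transcript arrays, per the labels' protocols. The deposited values are on a log2 scale; the authors used RMA and Affymetrix Expression Console 1.1, as the submitters' processing notes name them. Scan dates, batches and further settings were not given. RMA corrects background, normalizes by quantiles and summarizes probes, and it compresses differences of dim genes. Precision is limited by the array number.

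Of 35556 features, a platform annotation gave 1 symbol to 21789, several to 1621 and none to 12146. Each of 19938 genes was read by its brightest feature (mean of the 5 arrays). RefSeq (GRCm38.p6) matched 21698 of the single-symbol features and gave gene order, chromosomes and promoter sequences. Of 100 pathway symbols listed 94 were measured. Columns of per-sample values left unused numbered 0.

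The test was a moderated one from limma 3.58.1 (lmFit, eBayes; R 4.3.3, default prior, 3 residual degrees of freedom, both directions) with Benjamini-Hochberg adjustment over all 19938 genes; SE and intervals are the moderated ones. The script was tested on simulated data. Members, lists and tests were chosen with earlier results of these data known. Named genes were all 9 members, the targeted gene, called neighbours and the 3 most alike genes. Also named were up to 6 called genes per pathway list, with well-known uncalled ones, and up to 4 per marker list. Flt3, Pecam1, Plxna3, Pdgfb, Vim, Hand1, Eomes, Gata4, Gata6, Sparc, Olfr1393, 3 pluripotency genes and markers below background were added after their values were seen. So were the endoderm markers above background that did not pass. The planned protein comparison was not made. Figures used matplotlib 3.10.9.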

Additional observations from a re-analysis of the deposited data

How the results depend on the processing

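The limits are 5 arrays in 2 groups of 3 and 2 and values rounded to 2 decimals; dim genes such as Kdr and Nrp1 have no fold. The whole table gave 1848 calls, 3234 after quantile normalization, 2982 after cyclic loess, and 0 to 964 with single arrays left out. The family gave 4 calls, 6 after quantile normalization or cyclic loess (Pgf and Kdr added), and 0 to 3 with single arrays left out: 2, 1 and 3 without Mkl2-/- replicates 1, 2 and 3, 2 without wild-type replicate 1 and 0 without wild-type replicate 2. The pathway lists gave 18 calls, 28 after quantile normalization, 29 after cyclic loess, 29 without genes that have no spread within either group, and 0 to 7 with single arrays left out. Without genes that have no spread within either group, the whole table gave 2643 calls and the family 5, with Pgf added as lower. The cause of these changes was not tested, but each fit with an array left out also has fewer samples.

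With the replicate number as a block, which leaves 1 residual degree of freedom, limma called 0 genes in the whole table, 0 in the family and 0 in the pathway lists (smallest adjusted p 0.161; 3827 genes had an unadjusted p under 0.05). The numbers are not stated to mark a shared day, so the arrays were not taken as pairs. Deviations from the group means correlated at -0.26 for the arrays numbered 1 and 0.18 for those numbered 2. The largest correlation was 0.35, for Mkl2-/- replicate 3 with wild-type replicate 1. With 2 wild-type arrays their deviations mirror each other, so these correlations cannot show whether cultures were paired. With up to 10 neighbours on each side (11 in all for Nrp1, 20 for the others) the medians were 0.08 for Vegfb, 0.06 for Flt1, 0.02 for Flt4, -0.01 for Nrp1 and -0.13 for Nrp2, and those of the other 4 members moved by less than the spread between arrays. At the 90th percentile of the olfactory receptor genes 7 members still lay above background, and at their median all 9 did. The other settings (2 filters on dim genes, trend and robust eBayes, weighted arrays, averaging features per gene, treating each feature alone) left 4 family calls.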

Other observations

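Around members that did not pass, some neighbouring genes did; these were chosen after their values were seen. Beside Vegfc on chromosome 8, Tenm3, a teneurin of neuronal wiring, differed by -0.62 ± 0.09 and Gpm6a, a neuronal membrane glycoprotein gene, by -0.51 ± 0.08 (limma adjusted p = 0.0350 and 0.0459), while Hand2, a heart and limb transcription factor, differed by 0.06 ± 0.10 without passing. Next to Nrp1 on the same chromosome, Itgb1, the shared beta subunit of many matrix receptors, was lower by -0.21 ± 0.01 (limma adjusted p = 0.00818). Near Flt4 on chromosome 11, Gfpt2, an enzyme of hexosamine synthesis, was lower by -0.55 ± 0.06 (limma adjusted p = 0.0216).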
